A study of Caenorhabditis elegans with 2 samples.

Results

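The genes described here encode 9 signalling proteins of the epidermal response to wounding and infection in *Caenorhabditis elegans*: dcar-1, gpa-12, nipi-3, tir-1, nsy-1, sek-1, pmk-1, snf-12 and sta-2. They were listed by their place in the pathway, and the rule used no signal, but earlier results of these data were known. All 9 were found among 19973 protein-coding genes of the nuclear chromosomes. At each gene every region was taken that overlapped, by at least 1 bp, a window from 3 kb upstream of the annotated 5′ end to the 3′ end. The regions come from chromatin immunoprecipitation and sequencing (ChIP-seq) of ELT-3, a GATA-type transcription factor of the epidermis, in whole L1 larvae of mixed sex. Both libraries, biological replicates 1 and 3, are from strain OP75, with unc-119(ed3) on chromosome III and the transgene wgIs75. A note on replicate 3 describes the transgene product as ELT-3 with GFP-FLAG at the C-terminus. The antibody field names elt-3 and the description names eGFP-elt-3, so the epitope is not settled here. The labels give 1 group and no other genotype, treatment or stage, so no difference between conditions could be tested, and the results below are descriptions. Because whole larvae were used, strong occupancy in few cells and weak occupancy in many cannot be told apart. The lists hold no expression values, so tissue markers were not checked.

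The epidermis of the worm answers a break in the cuticle or an attacking fungus by making antimicrobial peptides of the nlp and cnc families. In this response the receptor DCAR-1 senses a tyrosine derivative and acts through the G protein subunit GPA-12 and the adaptor TIR-1 on a p38 kinase cascade, NSY-1 to SEK-1 to PMK-1. NIPI-3, a Tribbles-family pseudokinase, acts on the cascade after infection, and the transporter-like protein SNF-12 works with the STAT-like factor STA-2 at the end of the pathway.

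In all, 4 lists of regions were used, all in build ce11. The submitters' list of peaks past their reproducibility threshold, called thresholded peaks, held 2940 regions. Lists of candidate regions, most of them below that threshold, were given for the pooled libraries (30000), replicate 1 (30000) and replicate 3 (24854). The signal of a region is the peak caller's own value and has a different scale in each list, so it was compared across lists only by rank, with rank 1 the strongest. The 2940 thresholded peaks were the 2940 highest of the pooled list, with signals of at least 34.2. Sequencing depth is not recorded in the lists, so no counting intervals are given.

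Sequences around some of the summits show the site that GATA factors recognise, WGATAR (W is A or T, R is A or G). They are taken from the RefSeq copy of the same assembly (WBcel235) and run 5′ to 3′ on the strand of the gene, with every WGATAR site on either strand in capitals. A site on the opposite strand reads as YTATCW. Each spans 50 bp to both sides of a summit, less any bases of an exon, except that of the nipi-3 promoter, which spans 300 bp around a pair of summits.
dcar-1 promoter peak (chrV:17910225-17910318, plus strand): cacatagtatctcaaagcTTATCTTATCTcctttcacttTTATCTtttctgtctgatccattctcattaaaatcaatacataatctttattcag
gpa-12 promoter peak (chrX:9243071-9243171, plus strand): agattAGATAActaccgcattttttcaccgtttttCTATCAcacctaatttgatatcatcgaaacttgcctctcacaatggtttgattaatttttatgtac
nipi-3 promoter, both peaks (chrX:15607628-15607927, plus strand): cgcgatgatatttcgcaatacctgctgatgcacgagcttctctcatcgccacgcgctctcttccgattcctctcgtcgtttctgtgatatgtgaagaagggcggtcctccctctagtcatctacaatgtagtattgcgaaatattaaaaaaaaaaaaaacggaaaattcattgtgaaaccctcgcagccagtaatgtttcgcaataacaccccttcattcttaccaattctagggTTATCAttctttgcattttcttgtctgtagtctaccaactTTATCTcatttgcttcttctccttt
nipi-3 3′ end peak, past the gene (chrX:15610624-15610674, plus strand): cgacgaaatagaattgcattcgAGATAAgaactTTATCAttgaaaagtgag
sek-1 proximal peak (chrX:7815357-7815457, plus strand): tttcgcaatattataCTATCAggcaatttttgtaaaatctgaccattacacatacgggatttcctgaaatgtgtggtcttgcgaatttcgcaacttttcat
sta-2 promoter peak (chrV:9740989-9741089, plus strand): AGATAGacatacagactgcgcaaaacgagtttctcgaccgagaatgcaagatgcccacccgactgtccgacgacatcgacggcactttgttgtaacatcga
nsy-1 upstream region (chrII:5021622-5021722, plus strand): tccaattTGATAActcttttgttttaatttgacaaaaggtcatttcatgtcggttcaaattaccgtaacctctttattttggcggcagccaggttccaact
tir-1 internal start region (chrIII:3887835-3887935, minus strand): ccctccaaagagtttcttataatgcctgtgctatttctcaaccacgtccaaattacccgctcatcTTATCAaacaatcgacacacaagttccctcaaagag
snf-12 promoter region (chrX:9029087-9029187, plus strand): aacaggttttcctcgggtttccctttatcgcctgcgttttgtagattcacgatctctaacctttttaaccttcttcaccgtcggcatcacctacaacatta
Of these, dcar-1 held 3 sites, gpa-12 held 2, and the stretch past the 3′ end of nipi-3 held 2. In the printed nipi-3 promoter stretch both sites lie toward the gene, and 2 more sites of the strong peak lie upstream of that stretch. The snf-12 stretch held none. The printed nsy-1, tir-1 and snf-12 regions are below the threshold. Most of the printed thresholded peaks were ones with a site. Peaks not printed include those of pmk-1 and tir-1 and the intronic and exonic peaks of gpa-12, which held none within 50 bp of the summit.

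Most of the 9 genes carried ELT-3 peaks. Of the 9 genes, 7 had at least 1 thresholded peak in the window (77.8%), against 17.6% of all coding genes (3515 of 19973). The genes without one were nsy-1 and snf-12. Together the 9 windows held 12 thresholded peaks, 3 each at gpa-12 and nipi-3, 2 at sek-1 and 1 each at dcar-1, tir-1, pmk-1 and sta-2. At least 2 peaks were found at 33.3% of the 9 genes, against 3.1% of coding genes, and 3 or more at 0.706% of coding genes. The windows of the 9 genes were longer, with a median of 7.49 kb against 5.03 kb for all coding genes. Per 10 kb of window, the 9 genes held 1.25 thresholded peaks, over 95.8 kb in all, against 0.302 over all coding genes. Of the 9 genes 4 are on chromosome X (44.4%, against 13.7% of coding genes), and 8 of the 12 peaks lie there (66.7%, against 21.0% of nuclear thresholded peaks). The part of this in the count was not tested. The libraries gave different counts. The 2940 strongest regions of replicate 1 lay at the same 7 genes (77.8%, against 17.6% of coding genes). The 2940 strongest of replicate 3 lay at 4 genes (44.4%, against 16.6% of coding genes), namely gpa-12, nipi-3, nsy-1 and sek-1. Near the annotated 5′ end, from 1 kb before it to 500 bp past it, 4 of the 9 genes had a thresholded summit (44.4%), against 9.4% of coding genes.

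**Figure D1:**
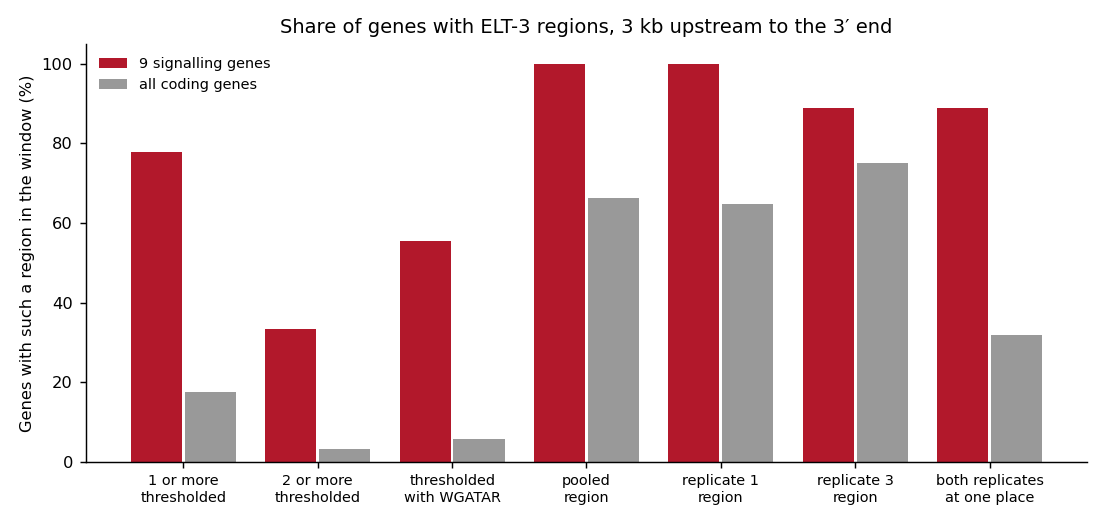
Percentage of genes with at least 1 region of the named kind between 3 kb upstream of the 5′ end and the 3′ end, for the 9 signalling genes (red) and all 19973 coding genes (grey). For thresholded peaks the bars stand at 77.8% and 17.6%, and for replicate 3 regions they are closer, at 88.9% and 75.1%.

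The peaks were weak ones within the thresholded list. Signals ran from 34.4 to 94.4 with a median of 39.3, against a median of 53.3 over the 2916 nuclear thresholded peaks, and 11 of the 12 lay below that median. Only the nipi-3 promoter peak was above the median of the list. With the peaks above the median alone, 1 of the 9 genes had a peak, against 9.64% of coding genes. The threshold passed close by several regions: the sek-1 peak with its summit 1327 bp upstream (34.37) and a nipi-3 peak (34.40) lay just inside it, and a tir-1 region (32.2) and a nipi-3 region 1027 bp upstream (31.3) just outside.

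**Figure D2:**
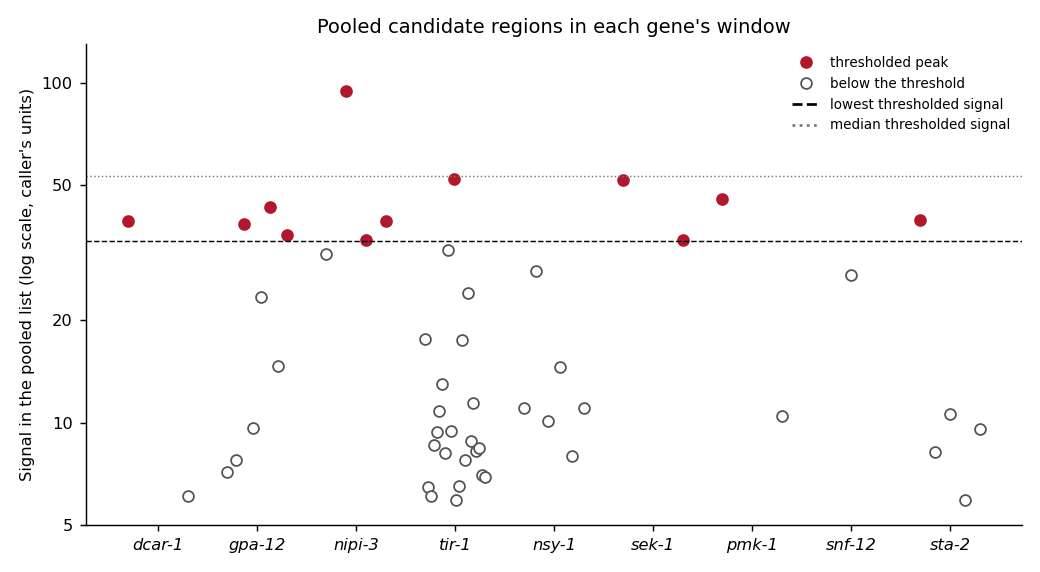
Signal of each pooled candidate region (log scale, the peak caller's units) in the window of each gene, in genomic order; filled points are thresholded peaks, the dashed line is the lowest thresholded signal (34.2) and the dotted line the median of nuclear thresholded peaks (53.3). A single point, at nipi-3 (94.4), lies above the dotted line.

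Among the receptor and G protein genes, peaks lay at the annotated starts of both. The gene dcar-1 (WBGene00007395, chromosome V, 17910319 to 17917239, plus strand) encodes the receptor, and its single peak (17910100 to 17910449) had a summit 44 bp upstream of the 5′ end. Its signal was 39.1, rank 2435 of 2940. Replicate 1 had a region with the same summit (rank 2619), and replicate 3 a region of rank 7481 whose summit was 158 bp away. All 3 WGATAR sites within 50 bp of the summit, shown above, read on the opposite strand and lay 9 to 30 bp from the summit, and 5 sites lay in the whole region.

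The gene gpa-12 (WBGene00001674, chromosome X, 9243557 to 9249107, plus strand) encodes a G protein alpha subunit and has 2 annotated coding transcripts with separate starts. Its 3 peaks lay 436 bp upstream of the outer start (signal 38.4), in an intron 200 bp upstream of the inner start (43.0) and in a coding exon 1247 bp past the inner start (35.5). Each start thus had a thresholded peak within 500 bp upstream. The promoter peak held 2 WGATAR sites within 50 bp of its summit, and the other peaks held none within the whole region. In replicate 1 the peaks ranked 2654, 2117 and 2157. In replicate 3 the first was met by a pair of regions (ranks 7384 and 12693), the second by a region of rank 10874 and the exonic one by none. Replicate 3 had its strongest gpa-12 region elsewhere, in the first intron 348 bp past the outer start (rank 1750), where the pooled region ranked 15255 and the replicate 1 region 17680.

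The pseudokinase gene nipi-3 (WBGene00010700, chromosome X, 15607969 to 15610623, plus strand) carried the strongest peak of the 9 genes. That peak (15607504 to 15607853) had its summit 290 bp upstream of the 5′ end and a signal of 94.4, rank 421 of 2940. It overlapped a second peak with its summit 91 bp upstream (34.4, rank 2906), so these are not separate places. The strong summit held no WGATAR site within 50 bp, though 2 lay farther out in its region, and the weak summit held 2 within 50 bp. Both had the same summits in replicate 1, at ranks 373 and 2807, and low-ranked regions in replicate 3, at 20161 and 23431. The third peak (15610449 to 15610798, signal 39.1) had its summit 1 bp past the 3′ end and 3 WGATAR sites within 50 bp, 2 of them in the stretch shown above. This peak ranked 3012 in replicate 1 and 1641 in replicate 3, where the summit lay 188 bp away, in an exon of nipi-3 outside the coding sequence. The order of the promoter and 3′ peaks of nipi-3 was thus opposite in the 2 libraries. No other coding gene had its 5′ end within 1000 bp of any of these summits.

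**Figure D3:**
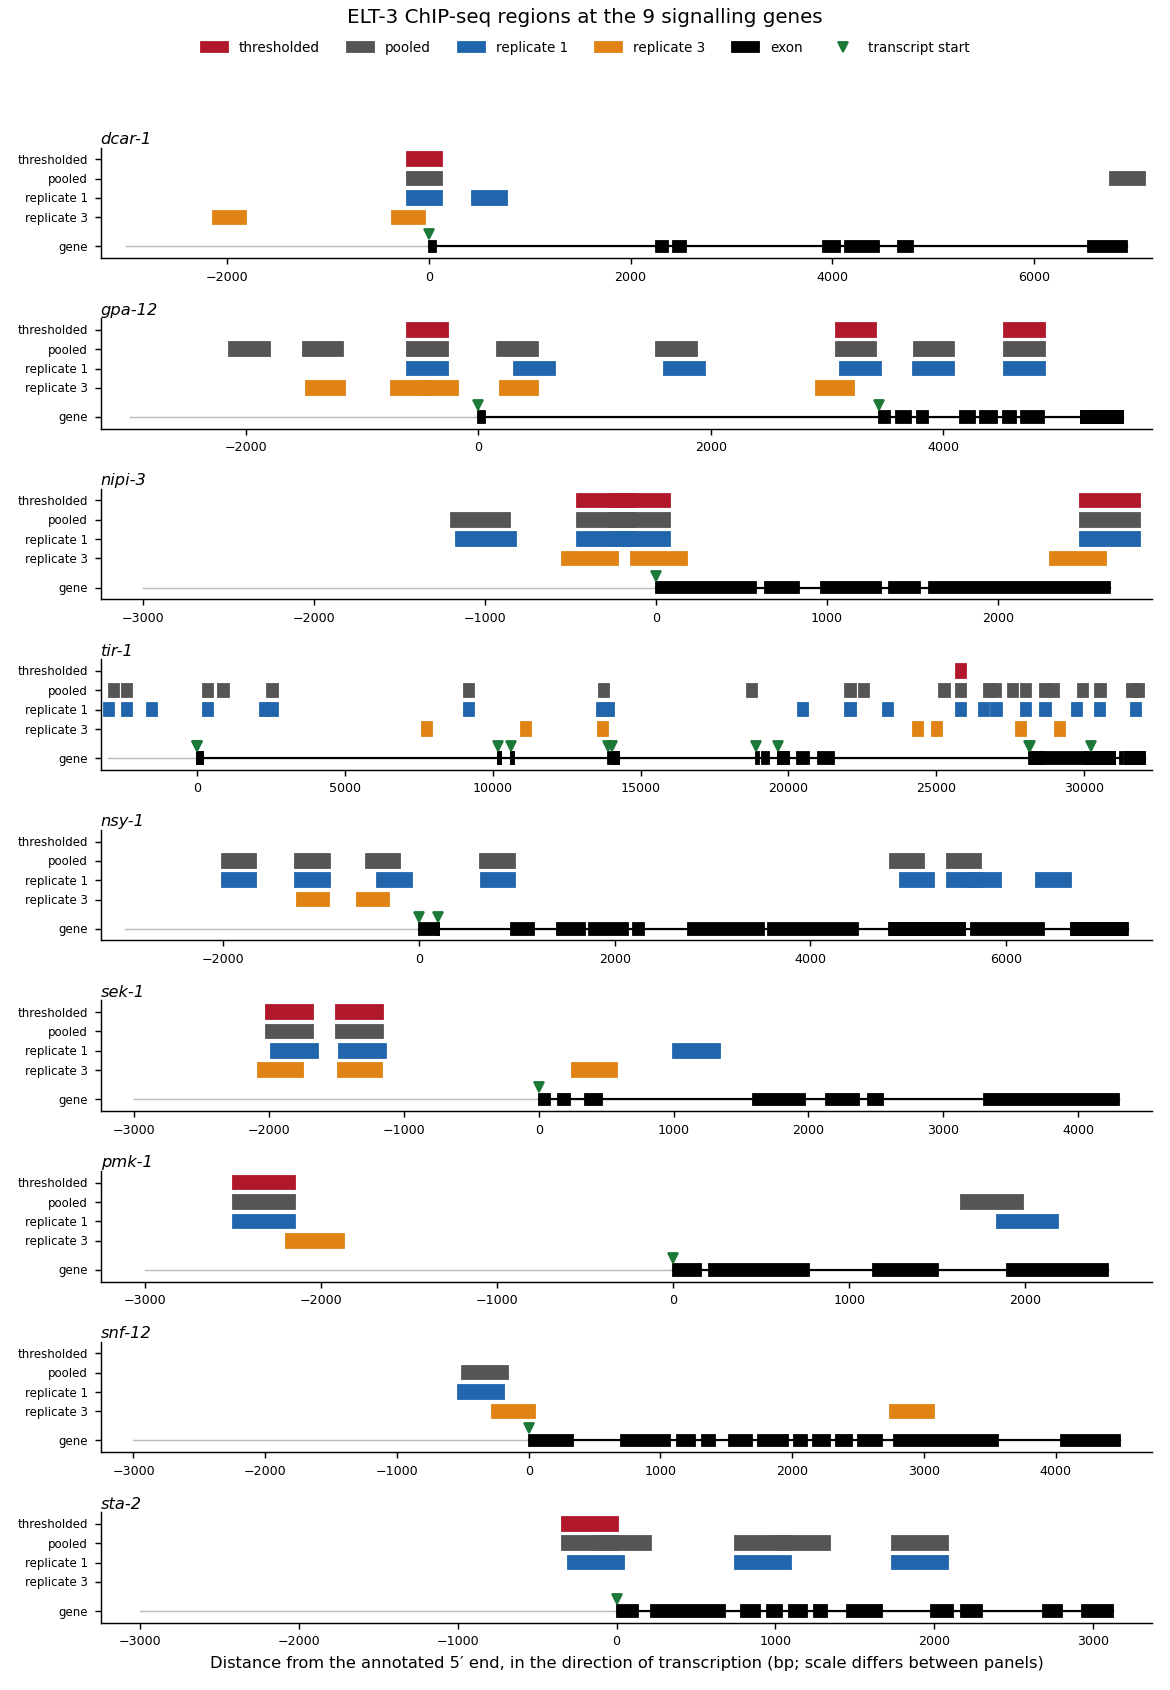
Regions at each gene by distance from the annotated 5′ end (bp, in the direction of transcription; scales differ), with rows for thresholded, pooled, replicate 1 and replicate 3 regions above the exons, and triangles at starts of coding transcripts. The promoter regions of dcar-1, gpa-12, nipi-3 and sta-2 line up in the thresholded and replicate 1 rows, while sta-2 has no replicate 3 region and nsy-1 and snf-12 no thresholded peak.

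The adaptor gene tir-1 (WBGene00006575, chromosome III, 3869590 to 3901642, minus strand) encodes a TIR-domain protein, the worm counterpart of SARM. It is the longest of the 9, with 13 coding transcripts from 11 starts and a window of 35.1 kb that held 22 of the 52 pooled candidate regions of the 9 genes. A single thresholded peak (3875643 to 3875992, signal 51.9, rank 1550) lay in an intron, 2307 bp upstream of the nearest annotated start. It held no WGATAR site in the whole region, ranked 1677 in replicate 1 and overlapped no replicate 3 region. Below the threshold, regions lay near several internal starts. Of the 11 starts 6 had a pooled summit between 500 bp upstream and 100 bp downstream, and over the 9 genes it was 13 of 21 starts (61.9%), against 29.6% of all 29314 starts of coding transcripts. These starts are not all separate places: tir-1 gives 11 of the 21, and neighbouring tir-1 starts share a summit. The strongest of the regions near internal starts had its summit 155 bp upstream of an internal start (pooled signal 24.1, rank 4500). By the nearest summit it ranked 5865 in replicate 1 and 5983 in replicate 3, with summits 41 and 16 bp away. Another replicate 1 region, of rank 5541, also overlapped it. It held 1 WGATAR site within 50 bp of its summit, shown above, and 2 in the whole region.

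The kinase genes differed in where regions lay. At nsy-1 (WBGene00003822, chromosome II, 5022757 to 5029999, plus strand), the MAP kinase kinase kinase of the cascade, no peak passed the threshold, but 6 pooled regions lay in the window. The strongest had its summit 1085 bp upstream (signal 27.95, rank 3832). In replicate 3 this place ranked 822, the highest rank that replicate 3 gave any of the 9 genes, and in replicate 1 it ranked 5855. The summits in the 2 libraries were 6 bp apart, and the stretch shown above holds 1 WGATAR site, reading TGATAA.

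At sek-1 (WBGene00004758, chromosome X, 7816734 to 7821036, plus strand), the MAP kinase kinase, a pair of peaks lay 1850 and 1327 bp upstream (signals 51.9 and 34.4). Both are inside an intron of R03G5.6, a coding gene on the opposite strand, 2040 and 1517 bp past its 5′ end, so the peaks cannot be given to one gene by position. These peaks were seen in both libraries, at ranks 1762 and 3350 in replicate 1 and 2597 and 6116 in replicate 3, with summits 67 and 0 bp apart between the pooled and the replicate 3 lists. Each held 1 WGATAR site within 50 bp of its summit, and the distal one held 4 in the whole region.

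At pmk-1 (WBGene00004055, chromosome IV, 8148794 to 8151266, plus strand), the p38 kinase itself, the single peak had its summit 2322 bp upstream (signal 45.6, rank 1943). It lay in an intron of pmk-2, the neighbouring p38 gene, 2972 bp past the 5′ end of pmk-2. The pmk genes of this locus are transcribed as an operon. No WGATAR site lay within 50 bp of the summit and 2 lay in the whole region. Replicate 1 had the same summit (rank 1823), and the overlapping replicate 3 region ranked 17485 with a summit 291 bp away.

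The genes at the end of the pathway had regions just upstream of their starts. At sta-2 (WBGene00010251, chromosome V, 9741206 to 9744331, plus strand), the STAT-like factor, the peak had its summit 167 bp upstream (signal 39.5, rank 2406) and 1 WGATAR site, 48 bp from the summit. It ranked 2138 in replicate 1. The window held no replicate 3 region, and sta-2 was the only one of the 9 genes with none. The non-coding RNA gene F58E6.17 lies within 200 bp of this summit on the opposite strand. At snf-12 (WBGene00004911, chromosome X, 9029470 to 9033955, plus strand), a member of the SLC6 transporter family, the only pooled region had its summit 333 bp upstream (signal 27.2, rank 3947), with no WGATAR site within 50 bp. It ranked 3931 in replicate 1 and 21688 in replicate 3.

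**Figure D4:**
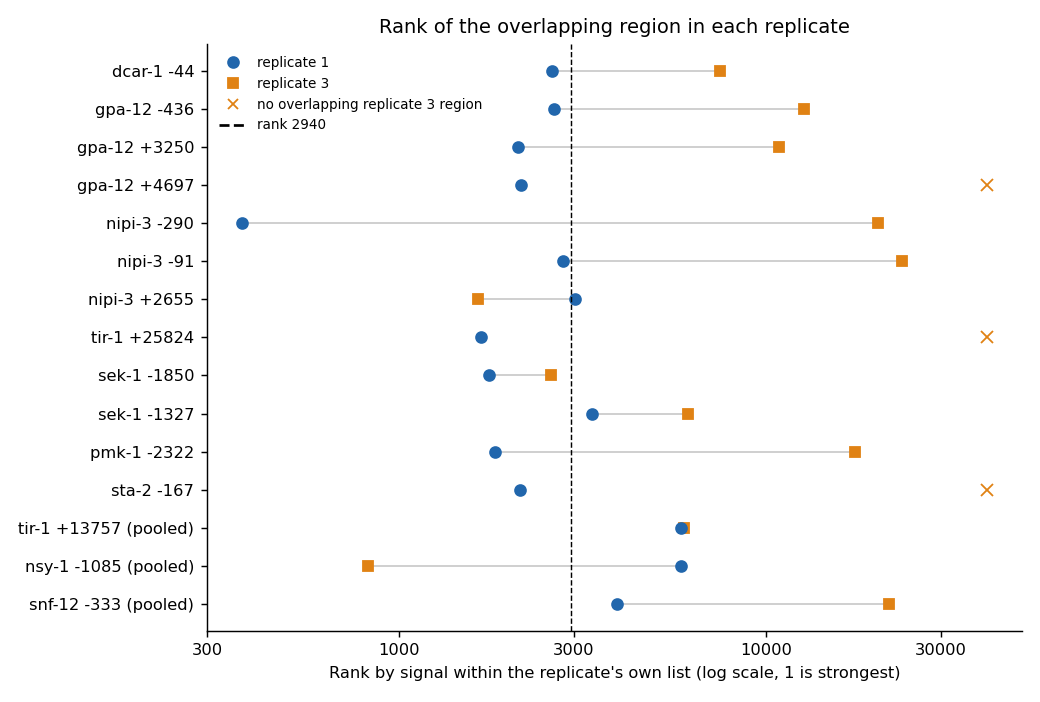
Rank by signal of the overlapping region nearest in summit, in the lists of replicate 1 (blue circles) and replicate 3 (orange squares), for the 12 thresholded peaks and 3 pooled regions, on a log axis; crosses mark peaks with no overlapping replicate 3 region and the dashed line is rank 2940. Of the 15 places, the nipi-3 3′ end peak and the nsy-1 region rank higher in replicate 3 than in replicate 1.

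The peaks matched replicate 1 more closely than replicate 3. All 12 overlapped a replicate 1 region (99.8% of nuclear thresholded peaks did), at ranks 373 to 3350 and with summits at most 40 bp away. A replicate 3 region overlapped 9 of the 12 (75.0%, against 58.6%), at ranks 1641 to 23431, and the summits differed by a median of 107 bp. Summits within 100 bp were found for 4 of the 12, and 2 of the 12 overlapped one of the 2940 strongest regions of replicate 3. For these stricter counts no share over all peaks is given. A region of each replicate at one place lay in the windows of 8 of the 9 genes (88.9%, against 31.9% of coding genes). At least 1 candidate region of any strength was common: pooled regions lay at all 9 genes against 66.4% of coding genes, replicate 1 regions at all 9 against 64.8%, and replicate 3 regions at 8 (88.9%) against 75.1%. Per 10 kb of window, replicate 3 had 2.61 regions at the 9 genes and 2.56 over all coding genes, whereas the pooled list had 5.43 and 3.12 and replicate 1 had 5.11 and 3.12.

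GATA sites were present at 7 of the 12 summits. The share with a WGATAR site no more than 50 bp away was 58.3%, against 34.8% of nuclear thresholded summits and 23.3% of nuclear pooled summits. At least 2 sites lay at 4 summits (33.3%, against 13.3%) and 3 sites at 2 summits, those of dcar-1 and of the nipi-3 3′ end (16.7%, against 3.88% with 3 or more). A thresholded peak with a site lay at 5 of the 9 genes (55.6%), against 5.71% of coding genes: dcar-1, gpa-12, nipi-3, sek-1 and sta-2. Over the whole region the share was 9 of 12, against 65.5% of nuclear thresholded peaks. Of related words, GATAAG, which sets no base before its first G, was at 3 summits (25.0%, against 14.3%), one of them the intronic gpa-12 summit, which has no WGATAR site. The WGATAR form TGATAA was at 2 summits (16.7%, against 19.4%). ACGCAG was within 50 bp of none of the 12, against 13.3% of nuclear thresholded summits, and GAGAGA of 2 (16.7%, against 25.1%). GC content within 50 bp of the summits had a median of 35.2%, against 42.6%, and its part in the site counts was not tested. With 12 peaks, of which a pair overlap, these shares are coarse, and a sequence match is not evidence of contact.

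**Figure D5:**
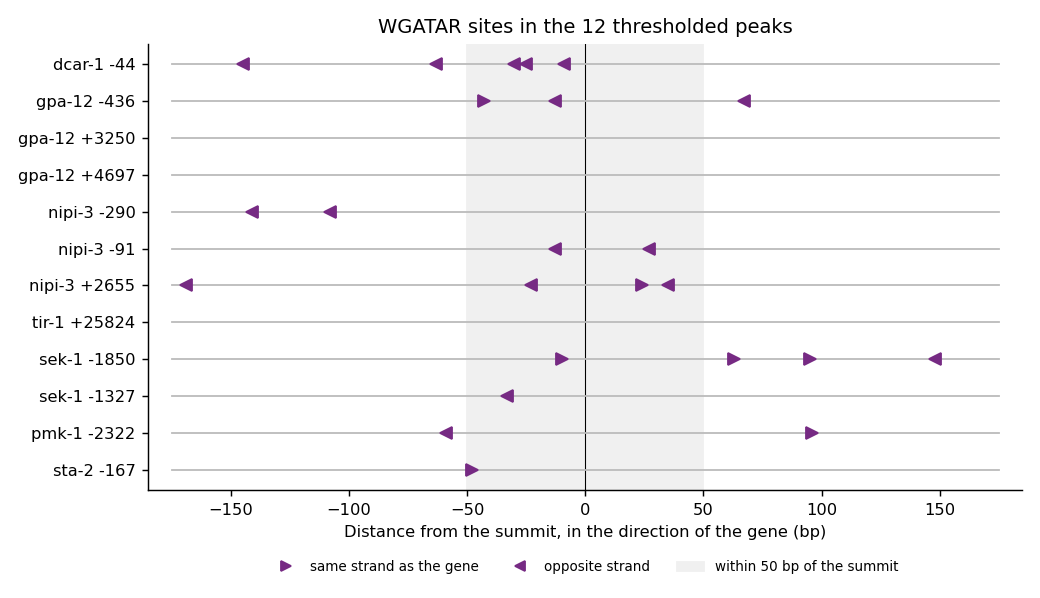
Position of each WGATAR site in the 12 thresholded peaks by distance from the summit (bp, in the direction of the gene); arrowheads give the strand of the site relative to the gene and the shaded band is 50 bp to each side. All 5 sites of the dcar-1 peak lie upstream of its summit, 3 of them inside the band, and the pmk-1 and strong nipi-3 promoter peaks have sites outside the band alone.

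By position, 6 of the 12 summits were intergenic, against 67.8% of nuclear thresholded summits, 5 were in introns (41.7%, against 25.2%) and 1 was in a coding exon. The intronic ones were divided among the host genes gpa-12, tir-1, pmk-2 and R03G5.6. Of the 12 summits 6 lay within 500 bp of an annotated start of the gene itself, at dcar-1, gpa-12, nipi-3 and sta-2. No share over all peaks is given for this count. The neighbour lgc-4, on the opposite strand, has its 5′ end 898 bp from the gpa-12 promoter summit. With only the outermost 5′ end of each gene counted, the nearest to the exonic gpa-12 summit was that of pes-8, 3534 bp away. For the tir-1 summit it was that of rpl-3, 7964 bp away. Internal transcript starts of gpa-12 (1247 bp) and tir-1 (2307 bp) were nearer to these summits.

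Of 23 other genes, listed as parts of the response or of related kinase modules, 10 carried peaks (43.5%, against 17.6% of coding genes). The windows of the 23 genes ran from 3.42 kb (nlp-29) to 26.1 kb (dapk-1). The median for all coding genes was 5.03 kb, and the part of window length in the count was not tested. In the G protein and calcium arm 2 of 6 carried peaks. They were tpa-1, a protein kinase C gene (signal 54.1, in an intron), and rack-1, a scaffold for protein kinase C (34.2, 1465 bp upstream). Among related kinase genes it was 3 of 7. They were mkk-4 (63.4, 1239 bp upstream) and dlk-1 (44.5, 309 bp past the 5′ end), both of a p38 module known from neurons, and pmk-2, through the peak described at pmk-1. Among regulators and factors it was 4 of 7. The MAP kinase phosphatase gene vhp-1 had 9 peaks in a window of 20.6 kb, the strongest 2937 bp upstream (84.5). The bZIP factor gene cebp-1, which in worms acts downstream of NIPI-3 in development, had a peak 711 bp upstream (92.4) that overlapped a replicate 3 region of rank 427. The bZIP factor gene atf-7 had 2 peaks, the stronger in an intron (91.3). The tyrosine-breakdown gene hpd-1 had 2 peaks, the stronger 2002 bp upstream (95.0) and at rank 75 in replicate 3. Of 3 peptide genes of the response, nlp-31 had a peak 37 bp upstream (126.7), and nlp-29 and cnc-2 had none in their windows. The strongest peaks of rack-1, dlk-1, mkk-4 and vhp-1 overlapped no replicate 3 region, while 58.6% of nuclear thresholded peaks overlapped one. The strongest peaks of tpa-1, pmk-2, atf-7 and nlp-31 overlapped replicate 3 regions of ranks 23662, 17485, 6078 and 1142. Of the 10 genes, hpd-1, atf-7 and nlp-31 had a WGATAR site within 50 bp of the strongest summit. Over all nuclear thresholded summits the share was 34.8%.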

How the data were processed

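The deposited lists give intervals and summits; the labels name no aligner or extraction protocol, and the peak caller is not given in the sources used here. Per the deposited manifest, candidate regions were derived from alignments of each library, or of both, and thresholded peaks from those lists. The deposited signal column is the caller's strength of a region, and the deposited −log10 column holds −log10 of its q-value, constant in the thresholded list. Build ce11 was used throughout, with the ce10 thresholded list as a check. Read depth is unknown.

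Genes came from Ensembl release 115. Regions were counted by overlap of at least 1 bp, motifs on both strands within 50 bp of a summit, and paired regions of a replicate by the nearest summit among those overlapping. No test was made because there is 1 group. Shares over 19973 coding genes, or over all nuclear peaks, regions or starts, stand beside many of the counts but not all. The text names all 9 members, coding genes whose 5′ ends are nearest to a peak or within 1000 bp, and every other pathway gene with a peak; pmk-2, R03G5.6 and F58E6.17, which hold or flank a summit, were added after the positions were seen. The members and lists were chosen with earlier results of these data known. Computations used Python 3.11.15, numpy 2.4.6 and pandas 2.3.3, and were tested on simulated data. Labels give replicate 1 a size range of 150 to 350 and replicate 3 microtip sonication. Sequence is shown for 7 of the 12 thresholded peaks, and the others are not reported here.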

Additional observations from a re-analysis of the deposited data

How the results depend on the processing

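Of 39 recomputed values, 22 stayed within 1.5 times the value reported. Those that did not were as follows. The shorter window, 1 kb before to 500 bp past the 5′ end, left 4 genes, 5 peaks and 10.1% of coding genes, counted by overlap. Counted by summit, as above, the share of coding genes was 9.4%. A summit within 1 kb of any annotated start was found at 4 genes. Keeping the thresholded peaks above their median signal left 1 gene, 1 peak and 9.64% of coding genes, and keeping the pooled regions above theirs left 30 candidate regions. Replicate 3 alone left 4 genes, 4 peaks and 25 candidate regions. Replicate 1 alone stayed within 1.5 times, so the range over single replicates was 4 to 7 genes, 4 to 11 peaks and 25 to 49 candidate regions. GATAAG was at 3 summits and TGATAA at 2, and 4 of the summits with WGATAR were within 1 kb of a start of the gene, a count added after seeing the data. Replicate 3 regions met 4 peaks with summits within 100 bp and 2 among its 2940 strongest regions. Regions of both replicates with summits within 100 bp lay at 5 genes. These counts have no background share beside them. In the ce10 thresholded list 11 of the 12 peaks were found by signal, all but the proximal sek-1 peak, a comparison also added after seeing the data. No paired analysis was possible because the labels give 1 group. The unknown depth limits all absences, which mean only that no region was listed.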

Other observations

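A short word recurs in several of the peaks and was noticed in the printed sequences. TTTCGCAA, counted on both strands over whole regions, lies in 4 of the 12 thresholded peaks (33.3%), against 4.8% of the 2916 nuclear thresholded peaks and 3.56% of the 29973 nuclear pooled regions. These are the 3 nipi-3 peaks and the proximal sek-1 peak, with 7 distinct copies, since the promoter peaks of nipi-3 overlap. Among pooled regions below the threshold it lies in 3 more, all toward the 3′ end of tir-1. A pair of these overlap and share a copy, so all pooled regions of the 9 genes hold 9 distinct copies. The word was chosen after the sequences were seen, so the shares are a description with no test.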
